A study of Mus musculus with 3 samples.

Results

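The genes described here are 8 cyclins and 2 of their kinase partners: the D cyclin genes Ccnd1, Ccnd2 and Ccnd3, the E cyclin genes Ccne1 and Ccne2, the A cyclin gene Ccna2, the B cyclin genes Ccnb1 and Ccnb2, and the kinase genes Cdk2 and Cdk4. Every probe set whose platform annotation names exactly 1 of these 10 genes was taken, which gave 20 of 22626 probe sets and covered 9 of the 10 genes. The annotation used here named no probe set for Ccnb1, so that gene was not analysed here. The arrays were hybridised with RNA from 3 mammary tumours, 1 array each, of female NMRI mice carrying the WAP-SVT/t transgene (line 8). The transgene puts both T antigens of simian virus 40, large T and small t, under the promoter of the whey acidic protein gene, Wap, and the labels place their expression in mammary epithelial cells alone. All 3 tumours carry the transgene, the ages of the mice were not given in the sources used here, no treatment is named, and no normal gland was analysed beside them. In the sample titles, tumours 1 and 2 carry the number 585 and tumour 3 carries 597. Its meaning was not stated, so tumours 1 and 2 may come from 1 mouse and an SD over the tumours may include related samples.

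Cyclins are regulatory subunits that switch on cyclin-dependent kinases (CDKs) at successive stages of the cell cycle. D cyclins pair with Cdk4 in response to growth signals and start the phosphorylation of the retinoblastoma protein, E cyclins pair with Cdk2 at entry into DNA synthesis, cyclin A2 acts through DNA synthesis, and B cyclins act at mitosis. Large T antigen binds the retinoblastoma family directly, which releases E2F transcription factors by a route that bypasses D cyclins and Cdk4, and it also binds p53. In the mammary gland cyclin D1 is known for its part in lobuloalveolar growth.

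Ccnd1 and Ccne2 differed most between tumours, by up to 4.11-fold and 3.64-fold, and in different orders. All 3 D cyclin genes were highest in tumour 2, while Cdk2, Cdk4 and Ccnb2 differed by no more than 1.55-fold. The scale used for differences is log2(intensity + 50) after quantile normalization, called the level, and folds are differences on this scale, which understates the change of dim probe sets. A probe set passed the low-signal floor when its mean level over the tumours reached 7.40, the median of all probe sets, and 15 of the 20 member probe sets did so, with at least 1 for each of the 9 genes. That of Ccne1 passed only through its highest tumour. Among the 15, the highest and the lowest tumour were at least 2-fold apart in 6, beside 26.9% of all 11313 probe sets past the floor. The 6 belonged to 4 of the 9 genes, Ccnd1 (3 probe sets of 1 transcript), Ccnd3, Ccne2 and Ccna2. The count of such probe sets was 5 without tumour 1, 2 without tumour 2 and 4 without tumour 3, when the background was 18.3%, 14.4% and 8.01%. The median range was 0.87 (log2) over the 15 and 0.68 over all probe sets past the floor. With 1 array per tumour and no control group, no test between tumours exists and no p-value is given. The number of arrays limits the precision of every value.

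**Figure D1:**
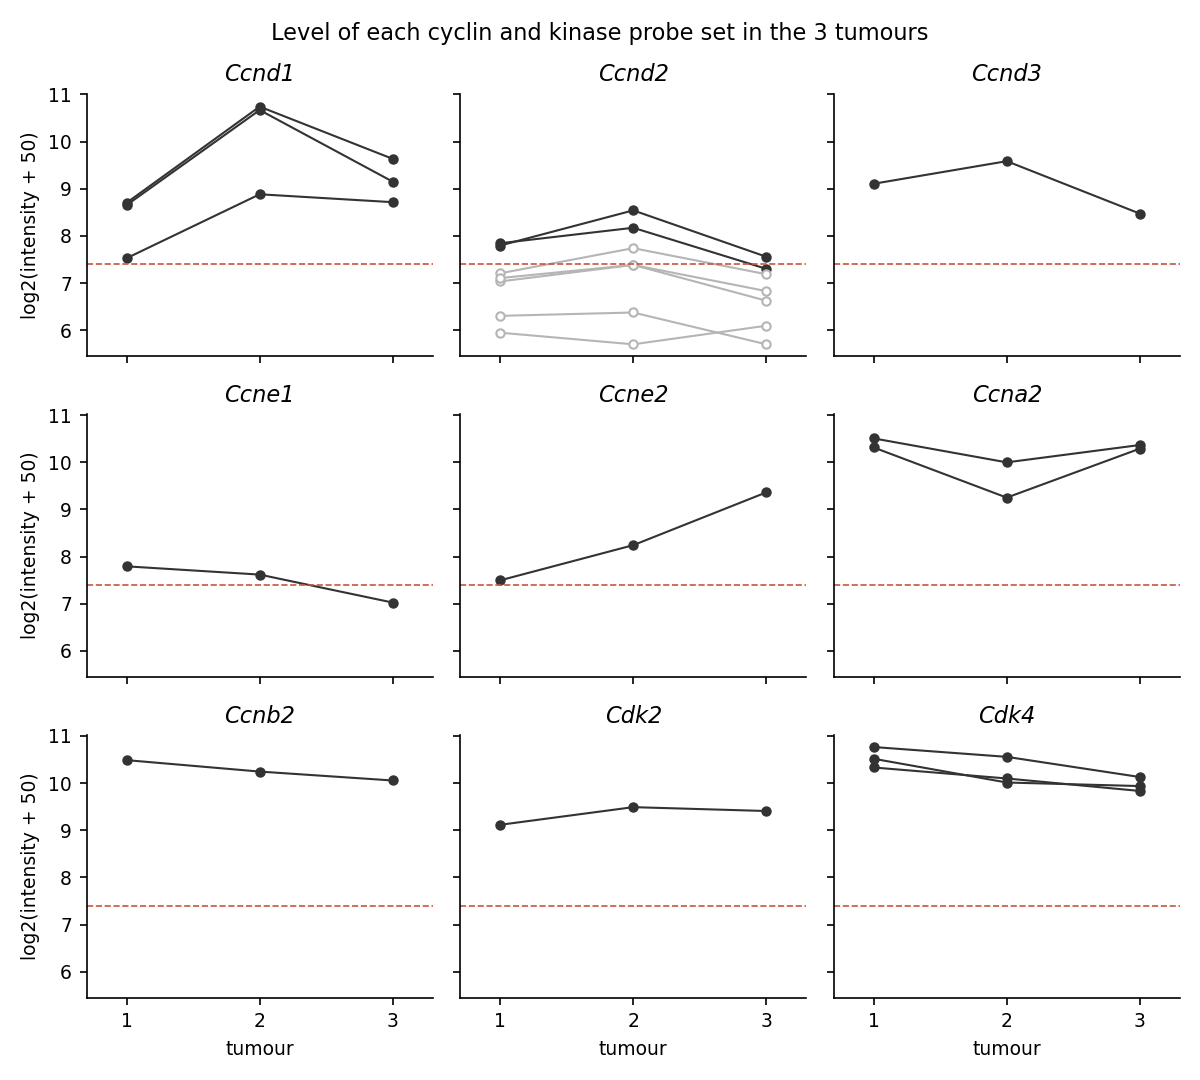
Levels, log2(intensity + 50) after quantile normalization, of the 20 probe sets in tumours 1, 2 and 3, with 1 panel per gene, 1 point per array and a line joining the values of 1 probe set. Filled points mark probe sets past the low-signal floor (dashed line, 7.40), open grey points those below it. The 3 Ccnd1 probe sets peak in tumour 2, Ccne2 peaks in tumour 3, and both Ccna2 probe sets are lowest in tumour 2.

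Arrays had median intensities of 111 to 120. The 3' to 5' ratio of the actin control probe sets was 1.04 to 1.26 and that of Gapdh 0.81 to 1.21, whereas the ratio of the 18S ribosomal RNA control was 0.50 and 0.40 in tumours 1 and 2 and 12.7 in tumour 3, so the array of tumour 3 stood apart in that control. All 8 luminal epithelial markers passed the floor, with a summed intensity of 27231, 25803 and 25253 in tumours 1, 2 and 3. Some single markers differed more and in different orders, such as Krt19 (1590, 803 and 454), Krt7 (774, 2065 and 563) and Cdh1 (1313, 1403 and 2793). Of the 8, 3 were highest in tumour 1, 4 in tumour 2 and 1 in tumour 3. Of 8 T and NK cell markers on the array 0 passed it.

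Ccnd1, which encodes the D cyclin most often raised in breast cancer, was highest in tumour 2 and lowest in tumour 1 in all 3 of its probe sets. Probe set 1417420_at read 356, 1634 and 742 intensity units in tumours 1, 2 and 3 (the order kept from here on), and 1448698_at had 343, 1567 and 514. In both, tumour 2 stood clear of the others and tumour 3 lay between. The level of 1417420_at was 9.69 ± 1.02 (SD, n = 3) with a range of 4.11-fold, and that of 1448698_at was 9.49 ± 1.05 with a range of 4.04-fold. In all, 3.40% of probe sets past the floor had a range as wide as that of 1417420_at. The dimmer probe set 1417419_at had intensities of 130, 440 and 364, a 2.56-fold range. There tumour 3 was near tumour 2, whose levels differed by 0.17 (log2), against 1.11 for 1417420_at and 1.52 for 1448698_at. The probe sets therefore shared the low value of tumour 1 and disagreed on how far tumour 3 lay below tumour 2. All 3 read the same transcript and are not independent samples. Between tumours 1 and 3 the fold was 1.91 for 1417420_at, 1.41 for 1448698_at and 2.28 for 1417419_at.

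Ccnd2, a second D cyclin, was dim, and 2 of its 7 probe sets passed the floor. Probe set 1434745_at had intensities of 167, 337 and 137 and 1416122_at had 174, 250 and 107, both with their peak in tumour 2 and the lowest value in tumour 3. Their ranges were 1.98-fold and 1.83-fold, short of 2-fold. The range of 1434745_at passed 2-fold with the intensities as deposited (1.05, log2) and both passed it with an offset of 16 (1.13 and 1.04). Of the 5 probe sets below the floor, 1430127_a_at, 1448229_s_at, 1455956_x_at and 1416123_at were also highest in tumour 2, with intensities there of 171, 122, 122 and 34. Probe set 1416124_at had intensities of 11, 2 and 19 and was highest in tumour 3, which is too dim to order. The tumour order 2, 1, 3 was thus shared by 6 of 7 probe sets, though 1430127_a_at barely separated tumours 1 and 3 (94 and 96), and their order turned with the intensities as deposited.

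Ccnd3, the third D cyclin, had the same order. Its probe set 1415907_at had intensities of 485, 742 and 299, a level of 9.05 ± 0.56 (SD, n = 3) and a 2.16-fold range. Tumour 2 exceeded tumour 1 by 1.39-fold and tumour 3 by 2.16-fold. The D cyclin genes parted on the lowest tumour: tumour 1 for Ccnd1, tumour 3 for Ccnd2 and Ccnd3. Probe sets at least 2-fold apart with the highest level in tumour 2 numbered 4 of the 15, beside 8.99% of all probe sets past the floor. They belonged to 2 genes, Ccnd3 and Ccnd1, whose 3 probe sets read 1 transcript.

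Among 11 marker lists of cell types that the tumours could hold, 5 had sums in the order of Ccnd2 and Ccnd3, those of fibroblasts, endothelium, neutrophils, B and plasma cells, and T and NK cells. The summed intensity of 12 fibroblast and matrix markers, all past the floor, was 20415, 28233 and 16038 in tumours 1, 2 and 3. That of 8 endothelial markers (4 past the floor) was 980, 1401 and 686, and that of 5 neutrophil markers (2 past the floor) was 969, 2543 and 384. The B and plasma cell sum (330, 363 and 210, 1 of 5 past the floor) and the T and NK cell sum (166, 169 and 85) were dim. Single markers of these lists did not all have the order of their sum. Of the fibroblast and matrix markers 8 of 12 were highest in tumour 2 and 4 in tumour 1, while 8 were lowest in tumour 3 and 4 in tumour 1. Highest in tumour 2 were 7 of 8 endothelial, 4 of 5 neutrophil and 2 of 5 B and plasma cell markers. Of the T and NK cell markers 3 of 8 were highest in tumour 2 and 5 in tumour 1. The sum of 12 macrophage markers (11 past the floor) was 22177, 20467 and 11888, lowest in tumour 3 but highest in tumour 1. No marker of these lists was at 0 in every tumour. Ccnd1 was lowest in tumour 1, as were the adipocyte sum (883, 995 and 6368) and the erythroid sum (17, 37 and 52, 0 of 3 past the floor), both highest in tumour 3. Their part in the D cyclin values was not tested, and in whole tumours fewer cells of a type and less RNA per cell cannot be told apart.

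**Figure D2:**
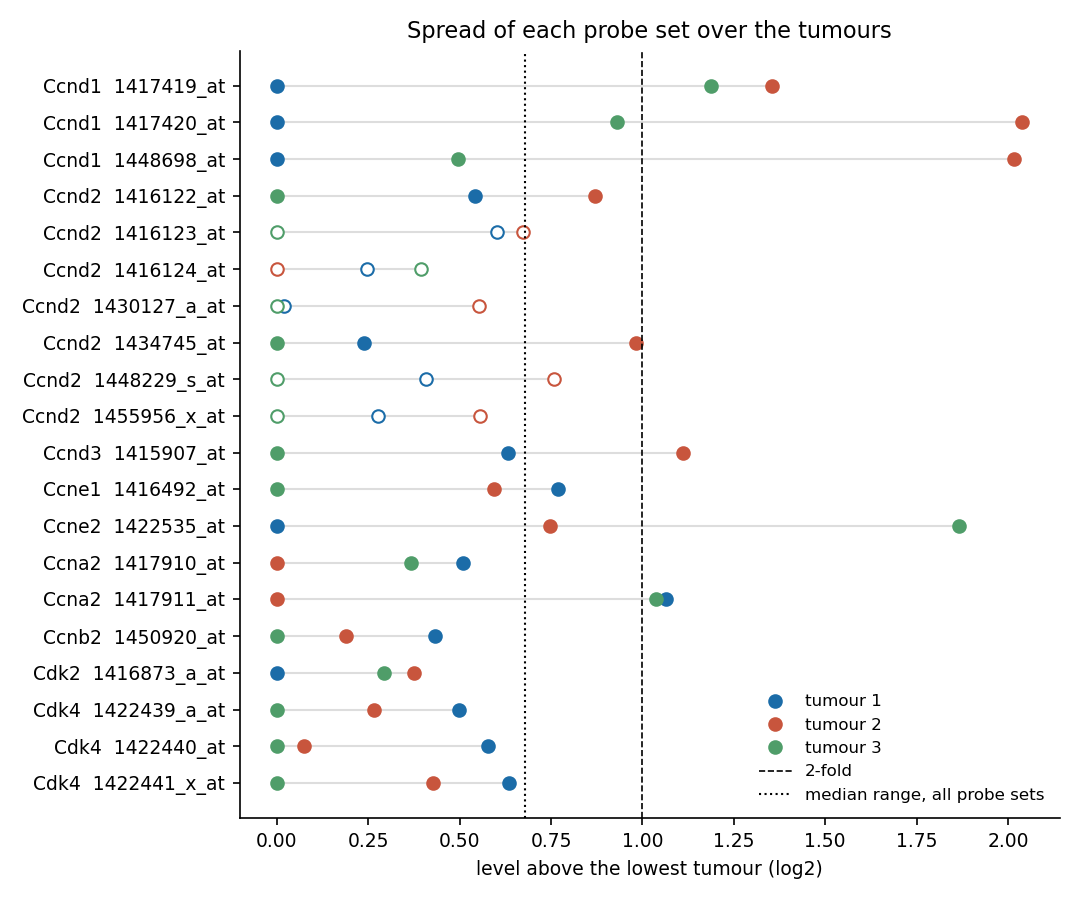
For each of the 20 probe sets, the level of each tumour above the lowest tumour of the same probe set (log2), coloured by tumour. Open points are probe sets below the low-signal floor, the dashed line marks 2-fold and the dotted line the median range of all probe sets past the floor (0.68). Ccnd1 and Ccne2 reach farthest to the right, and the Cdk4, Cdk2 and Ccnb2 probe sets end left of the dotted line.

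The E cyclins ran in opposite orders. Ccne2 (1422535_at) had intensities of 126, 266 and 602, so that each tumour stood apart from the next. Its level was 8.37 ± 0.94 (SD, n = 3), with a range of 3.64-fold, 1.68-fold between tumours 1 and 2 (that is, without tumour 3, whose 18S control stood apart) and 2.17-fold between tumours 2 and 3. It was the 1 member probe set of 15 that was at least 2-fold apart and highest in tumour 3, beside 11.3% of all probe sets past the floor. The summed intensity of 6 adipocyte markers (3 past the floor), the marker list that differed most between tumours, ran in the order of Ccne2: 883, 995 and 6368, a 7.21-fold ratio, with 6 of 6 highest in tumour 3 and 4 of 6 lowest in tumour 1. Adipoq, Fabp4 and Car3 were the adipocyte markers past the floor, Adipoq only through tumour 3. Their part in the Ccne2 values was not tested. Ccne1 (1416492_at) was near the floor, with intensities of 167, 153 and 81 and a level of 7.48 ± 0.40. Tumours 1 and 2 were close and tumour 3 was lower, a 1.70-fold range. Ccne1 and Ccne2 each rest on 1 probe set, so no second reading of either order exists on this array.

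Ccna2, the cyclin of DNA synthesis and early mitosis, was lowest in tumour 2 in both its probe sets. Probe set 1417911_at had intensities of 1177, 580 and 1238, so tumours 1 and 3 were nearly equal and tumour 2 was low, with a 2.09-fold range. Which of tumours 1 and 3 was highest turned with the intensities as deposited and with array medians subtracted. Probe set 1417910_at, of the same gene, had 1356, 985 and 1312 and a range of 1.42-fold, narrower than the 2-fold mark. The direction was shared, but the size of the drop was not: relative to tumour 1, tumour 2 was lower by 2.09-fold in one and 1.42-fold in the other. Tumour 2 was also lowest for the sum of 5 skeletal muscle markers (495, 173 and 547, 2 past the floor) and for each of the 5, and their part in the Ccna2 values was not tested. Ccnb2 (1450920_at), a mitotic cyclin, had intensities of 1336, 1172 and 1038 and a level of 10.26 ± 0.22 (SD, n = 3). Its 1.35-fold range was exceeded or equalled by 74.5% of probe sets past the floor.

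The kinases had ranges near or below the median of all probe sets past the floor. Cdk4, the partner of D cyclins, was highest in tumour 1 and lowest in tumour 3 in all 3 probe sets. Intensities were 1194, 1057 and 875 for 1422439_a_at, 1365, 995 and 947 for 1422440_at, and 1642, 1457 and 1099 for 1422441_x_at. The ranges were 1.41-fold, 1.49-fold and 1.55-fold, all below the median of all probe sets past the floor (1.60-fold). Ranges at least as wide were held by 67.7%, 59.8% and 54.1% of those, so the Cdk4 ranges were not unusual. The luminal sum, the macrophage sum and that of 8 basal epithelial markers (2345, 1686 and 1399, 1 past the floor) ran in the order of Cdk4 and Ccnb2, and their part was not tested. The luminal sums differed by only 1.08-fold, and 3 of the 8 luminal markers were highest in tumour 1 and 4 in tumour 2. Of the macrophage markers 7 of 12, and of the basal markers 6 of 8, were highest in tumour 1. Cdk4 did not share the tumour order of the cyclins it pairs with: tumour 2 was highest for every D cyclin gene and for no Cdk4 probe set. Cdk2 (1416873_a_at), the partner of E and A cyclins, had intensities of 489, 693 and 622, a level of 9.34 ± 0.20 (SD, n = 3) and the narrowest range of the 15 probe sets, 1.30-fold.

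By pair of tumours, members at least 2-fold apart numbered 4 of 15 between tumours 1 and 2 (background 8.01%), 2 of 15 between tumours 1 and 3 (14.4%) and 5 of 15 between tumours 2 and 3 (18.3%). The 4 between tumours 1 and 2 were the 3 Ccnd1 probe sets, higher in tumour 2, and 1417911_at of Ccna2, lower there. Those between tumours 1 and 3 were 1417419_at of Ccnd1 and Ccne2, both higher in tumour 3. Between tumours 2 and 3 they were 1417420_at and 1448698_at of Ccnd1 and Ccnd3, higher in tumour 2, and Ccne2 and 1417911_at of Ccna2, higher in tumour 3. These comparisons share arrays, and the Ccnd1 probe sets share 1 transcript, so the counts are not of separate observations.

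The RefSeq promoter table (GRCm38.p6) held 6 of the 10 genes, and Ccnd1, Ccnd2, Ccne2 and Ccna2 were not among them. The 3 windows printed here, each the 250 bases before a transcript start, are shown because Ccnd3 was the one gene with a range of at least 2-fold in that table, and Ccnb2 and Cdk2 were the cyclin and the kinase with the narrowest ranges. Ccnd3 has several starts and the window is that of the downstream one, chr17:47593217-47593466 on the plus strand. Those of Ccnb2 and Cdk2 are chr9:70421555-70421804 and chr10:128705052-128705301, both on the minus strand. Capitals mark the CCAAT box (CCAAT, the site of the factor NF-Y), the cell-cycle homology element (TTTGAA) and E2F motifs (TTTCCCGC, TTTGGCGC, TTTCGCGC or TTTGCCGC), all searched on both strands.
Ccnd3: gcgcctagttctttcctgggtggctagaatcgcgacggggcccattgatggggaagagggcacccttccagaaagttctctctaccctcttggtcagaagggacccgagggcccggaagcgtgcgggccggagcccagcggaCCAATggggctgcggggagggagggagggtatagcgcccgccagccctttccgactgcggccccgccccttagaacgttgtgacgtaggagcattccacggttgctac
Ccnb2: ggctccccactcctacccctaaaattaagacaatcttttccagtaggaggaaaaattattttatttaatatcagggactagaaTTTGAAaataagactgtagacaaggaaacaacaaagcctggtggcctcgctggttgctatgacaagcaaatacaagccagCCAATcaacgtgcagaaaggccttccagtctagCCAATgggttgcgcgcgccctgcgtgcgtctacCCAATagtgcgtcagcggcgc
Cdk2: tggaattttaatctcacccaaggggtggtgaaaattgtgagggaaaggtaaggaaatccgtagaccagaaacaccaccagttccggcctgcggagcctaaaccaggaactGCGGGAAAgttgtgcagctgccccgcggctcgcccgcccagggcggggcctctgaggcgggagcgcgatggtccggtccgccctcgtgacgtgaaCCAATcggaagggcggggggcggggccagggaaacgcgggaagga
No marked motifs overlap in these windows. Ccnb2 held 3 CCAAT boxes, with first bases 87, 54 and 21 bases before the start, and 1 TTTGAA, 167 bases before it. Cdk2 held 1 CCAAT box and 1 E2F motif, the reverse complement GCGGGAAA at 140 bases before the start. Ccnd3 held 1 CCAAT box, 108 bases before the downstream start, and its upstream start had none of the 3 motifs. Of all 32851 promoter windows of this length, 33.9% held a CCAAT box, 15.99% TTTGAA and 1.86% an E2F motif. A match is a description of letters and not a measured binding site.

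Among 124 other cell-cycle genes past the floor, from 7 lists of 149 genes in all, 22 (17.7%) were at least 2-fold apart, beside 24.8% of all 6951 genes past it, with 1 probe set per gene. The count was 8 without tumour 1, 16 without tumour 2, 8 without tumour 3 and 10 with the floor at the 75th percentile. In those settings 18.3%, 14.4%, 8.01% and 27.1% of all probe sets past the floor were at least 2-fold apart. The same shares stand beside the counts of each list below, and the higher floor also left fewer genes to count. Lists of the machinery that acts with the cyclins had median ranges near or below that of all genes. Median ranges were 0.55 for other cyclins and CDKs, 0.49 for activators and inhibitory kinases, 0.59 for cyclin turnover, 0.64 for the retinoblastoma family with E2F factors, 0.64 for genes of DNA synthesis and 0.53 for mitotic genes, beside 0.66 (log2) for all genes past the floor. The CDK inhibitors were the exception, with a median of 2.14.

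**Figure D3:**
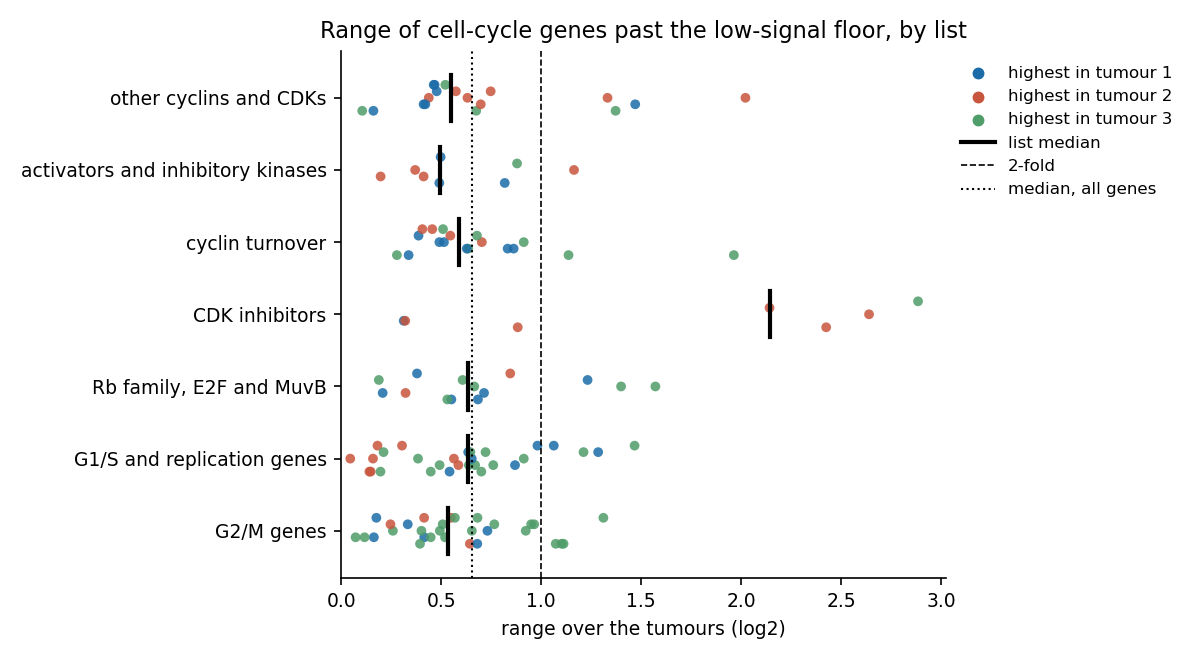
Range over the 3 tumours (log2) of each cell-cycle gene past the low-signal floor, 1 point per gene, coloured by its highest tumour and grouped by list. Thick bars are list medians, the dashed line marks 2-fold and the dotted line the median of all genes (0.66). The median of the inhibitor list is at 2.14 and the medians of the other 6 lists lie left of the dotted line.

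Of 18 other cyclins and CDKs past the floor, 4 were at least 2-fold apart. The count was 0 without tumour 1, 2 without tumour 3, 2 with the mean of a gene's probe sets and 1 with the floor at the 75th percentile. Ccng1, a cyclin gene induced by p53, had intensities of 387, 1751 and 964 and a 4.06-fold range, with the tumour order of Ccnd1, and its other 2 probe sets had that order too. Ccnk, of the transcriptional cyclins, had 258, 155 and 65 (2.77-fold), and Ccnc, of the Mediator kinase module, had 59, 136 and 236 (2.59-fold). Both passed the floor only through their highest tumour, so the floor itself favoured a wide range. Cdk14, named after its values were seen, was the other of the 4. Ccni differed least in its brightest probe set (1.08-fold), whereas its probe set 1448334_a_at differed 2.54-fold.

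Activators and inhibitory kinases gave 1 of 8, the phosphatase gene Cdc25c with intensities of 258, 448 and 162 (2.24-fold). Its order was that of Ccnd2 and Ccnd3. The count was 0 without tumour 2, without tumour 3, with the floor at the 75th percentile and with suffixed probe sets left out, and 2 with the intensities as deposited or array medians subtracted. Cks1b, a small CDK-binding subunit, had 1922, 1851 and 3761, but its second probe set was highest in tumour 1. Cdc25a differed by 1.76-fold and the kinase gene Pkmyt1 least, by 1.15-fold.

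In cyclin turnover, 2 of 18 genes were at least 2-fold apart and both were highest in tumour 3. The count was 1 with any 1 tumour or the suffixed probe sets left out. Skp2, the substrate receptor of a ubiquitin ligase that acts on the CDK inhibitor p27, had intensities of 437, 206 and 927 and a 3.90-fold range. Tumour 3 was highest and tumour 2 lowest in 4 of its other 5 probe sets, and 1425072_at (177, 185 and 160) differed by 1.09-fold. The mitotic ubiquitin ligase activator Cdc20 had 1424, 1770 and 3512 (2.20-fold), with the same highest and lowest tumour in both other probe sets. Cul1, the scaffold of the Skp2 ligase, was highest in tumour 3 at 1.88-fold above tumour 1, and Fbxo4 differed least (1.21-fold). Cdc20 and Cul1 had the order of Ccne2.

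The inhibitors of cyclin-CDK complexes had 4 of 7 genes at least 2-fold apart. The count was 1 without tumour 1 and 2 with the floor at the 75th percentile. Tumour 1 was lowest in 5 of the 7, beside 28.8% of all genes past the floor, and tumour 2 was highest in 5, beside 39.2%. Cdkn1a (330, 1992 and 1085), Cdkn2a (114, 716 and 358) and Cdkn2b (127, 1100 and 1332) were lowest in tumour 1, with ranges of 5.37-fold, 4.41-fold and 7.39-fold. Cdkn1c (115, 436 and 26) was highest in tumour 2 with a 6.23-fold range. Cdkn1c passed the floor only through that tumour, so its place in these counts rests on it. Cdkn2c (1.84-fold) and Cdkn2d (1.25-fold) also had their lowest value in tumour 1 and peaked in tumour 2, and Cdkn1b (1.24-fold) peaked in tumour 1. Cdkn2a, Cdkn2c, Cdkn2d and the brighter Cdkn1a probe set had the tumour order of Ccnd1. The dimmer Cdkn1a probe set, 1421679_a_at, was below the floor and had 42, 110 and 208, the order of Ccne2.

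Of the retinoblastoma family, E2F factors and their partners 3 of 14 were at least 2-fold apart, 1 with any 1 tumour left out and 0 with the floor at the 75th percentile. The MuvB subunit gene Lin9 (89, 184 and 368, 2.97-fold) had the order of Ccne2. E2f5 (145, 104 and 340, 2.64-fold) was highest in tumour 3 and lowest in tumour 2, whereas its second probe set, 1460207_s_at (137, 151 and 191), differed by 1.28-fold and was lowest in tumour 1. Mybl2, a transcription factor of the mitotic gene programme, had 351, 130 and 176 (2.35-fold) and shared its lowest tumour with Ccna2. Its second probe set, 1454946_at, was below the floor with 124, 117 and 57 and was lowest in tumour 3. E2f6 differed least (1.14-fold).

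Genes of DNA synthesis gave 4 of 29, a count of 2 without tumour 1, 0 without tumour 3 and 2 with the floor at the 75th percentile. The origin recognition genes Orc6 (222, 428 and 713, 2.77-fold) and Orc1 (78, 97 and 248, 2.32-fold) had the order of Ccne2, and the flap endonuclease gene Fen1 (2419, 2097 and 1025, 2.44-fold) had the reverse order. Orc1 passed the floor only through tumour 3. The second Fen1 probe set differed by 1.50-fold and was lowest in tumour 2. Rrm1 was the other gene of the 4, named after its values were seen, and Pola2 differed least (1.03-fold). Mitotic genes gave 4 of 30, with 20 of 30 highest in tumour 3, beside 30.2% of all genes past the floor, and 15 of 30 lowest in tumour 2, beside 27.1%. The 4 became 0 without tumour 3, whose 18S control stood apart, 2 without tumour 1, 2 without tumour 2 and 2 with an offset of 100. With array medians subtracted they became 6, when 27.3% of all probe sets past the floor were at least 2-fold apart. Racgap1 (806, 547 and 1426, 2.48-fold), Smc2 (1111, 1587 and 2727, 2.16-fold) and Nek2 (138, 133 and 324, 2.15-fold) were highest in tumour 3, as was Ect2, named after its values were seen. The second Racgap1 probe set, 1421546_a_at (570, 530 and 841), differed by 1.58-fold with the same highest and lowest tumour. Hmmr differed least in its brightest probe set (1.05-fold), while 1450157_a_at of the same gene differed by 2.53-fold. The B cyclin Ccnb2 was lowest in tumour 3, where 5 of the 30 mitotic genes and 44.1% of all genes past the floor were lowest.

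To see whether genes beside a member had its tumour order, the 5 nearest genes past the floor on each side were taken in the order of the RefSeq gene table (GRCm38.p6, used for gene order alone). Of 83 such neighbours of the 9 genes, 23 (27.7%) were at least 2-fold apart, near the 24.8% of all genes. The count was 14, 11 and 5 without tumours 1, 2 and 3, when 18.3%, 14.4% and 8.01% of all probe sets past the floor were so. Around Ccnd1 all 5 neighbours lay on 1 side, 0 of them was at least 2-fold apart, and their median departure from the tumour mean was 0.01, 0.25 and -0.19 in tumours 1, 2 and 3, against -0.99, 1.05 and -0.06 for Ccnd1 itself. Highest in tumour 2, as Ccnd1 was, were 3 of the 5, beside 39.2% of all genes past the floor. Both the highest and the lowest tumour of Ccnd1 were shared by 2 of 5, beside 13.8%. Around Ccnd2, 2 of 10 and around Ccnd3, 1 of 10 were at least 2-fold apart. The 2 beside Ccnd2 had its full order, shared by 2 of its 10 neighbours and by 25.4% of all genes past the floor. The 1 beside Ccnd3 was Nfya, a subunit of the CCAAT-binding factor NF-Y, with intensities of 634, 359 and 279 and its highest level in tumour 1. The full order of Ccnd3, the same as that of Ccnd2, was shared by 0 of its 10 neighbours, and by 2 with the intensities as deposited.

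Around Ccne2 the tumour order of several neighbours was that of Ccne2 itself. Of 10, 8 were highest in tumour 3, where 30.2% of all genes past the floor were, and 8 were lowest in tumour 1, where 28.8% were. Both held for 7 of 10, and for 15.0% of all genes. Their median deviation was -0.41, 0.03 and 0.37 in tumours 1, 2 and 3, against -0.87, -0.12 and 0.995 for Ccne2. With 10 genes on each side, 14 of 20 were highest in tumour 3 and 15 of 20 lowest in tumour 1. The counts of 8 and 8 also held with the intensities as deposited and with array medians subtracted. At least 2-fold apart were Asph, a hydroxylase gene (231, 457 and 659), Ints8, of the Integrator complex (214, 279 and 579), Virma, of the RNA methylation complex (316, 472 and 790), the p53 target Trp53inp1 (241, 1133 and 915) and the chromatin remodeller gene Chd7 (278, 201 and 103). Chd7 ran against the order and Trp53inp1 was highest in tumour 2. Other probe sets of Asph (1420959_at, 1.62-fold, and 1450058_at, 1.49-fold) and Virma (1427907_at, 1.65-fold) kept the order but fell short of 2-fold. Below the floor, Asph 1425274_at and 1425275_at (both 1.18-fold) and Ints8 1460609_at (35, 30 and 42, 1.15-fold) were lowest in tumour 2. Trp53inp1 1416927_at differed by 3.17-fold with the same highest and lowest tumour as its first probe set. Neighbouring genes were read on the same 3 arrays and are not independent of each other.

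**Figure D4:**
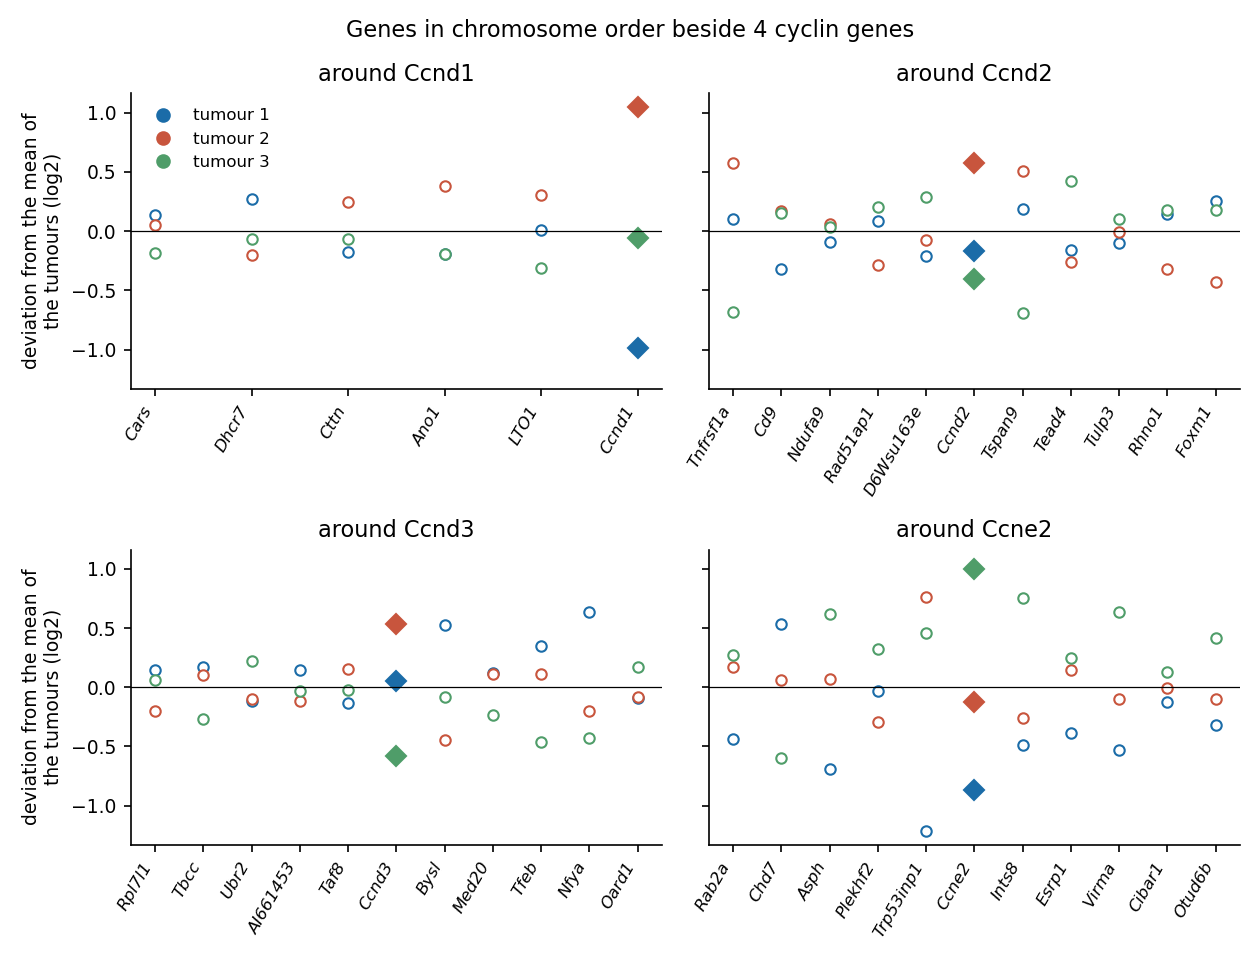
Level of each tumour minus the tumour mean (log2) for Ccnd1, Ccnd2, Ccnd3 and Ccne2 (diamonds) and for up to 5 genes past the floor on each side in chromosome order (open circles), coloured by tumour and evenly spaced. Around Ccne2 most circles of tumour 3 lie above 0 and those of tumour 1 below it, as for Ccne2 itself, whereas the neighbours of Ccnd1 stay within 0.38 of 0.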

How the data were processed

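Intensities were deposited by the authors as 1 linear whole number per probe set and tumour. Per the labels' protocols, RNAzol-extracted total RNA was transcribed into biotinylated cRNA. Probe summarisation and array scaling are steps not given in the sources used here. Scaling could change differences between tumours. Of 22690 probe sets, 64 controls were left out, 20380 named 1 gene, 691 several and 1555 were unlisted. The others were quantile normalized over 22626 probe sets, an offset of 50 was added and log2 taken, as in an earlier analysis of these data. Tumours are numbered in accession order, form 1 group and had no test, and no 2 arrays were identical. Genes outside the members were each read from the probe set of greatest mean level. Named genes were all members, the 3 widest and the narrowest gene of each list, all inhibitors, and the neighbours at least 2-fold apart beside a member whose brightest probe set was so too. Members and lists were chosen with earlier results of these data known. Functions were tested on simulated data. Alternatives were the intensities as deposited, array medians subtracted, offsets of 16 and 100, other floors, suffixed probe sets left out, the mean of probe sets, 10 neighbours on each side and each tumour left out. Python 3.11.15, numpy 2.4.6, pandas 2.3.3 and matplotlib 3.10.9 were used.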

Additional observations from a re-analysis of the deposited data

How the results depend on the processing

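The 6 of 15 member probe sets at least 2-fold apart numbered 6 to 8 of 15 under other scalings and offsets. Of all probe sets past the floor, 21.4% (offset of 100) to 31.9% (offset of 16, which gave the 8) were then so. The members numbered 6 of 20 with no floor (17.0% of all probe sets) and 4 of 10 with the floor at the 75th percentile (27.1%). With suffixed probe sets left out they numbered 6 of 12 (25.8%). With 1 tumour left out they numbered 2 to 5, the lowest without tumour 2. The 22 other cell-cycle genes became 10 with the floor at the 75th percentile, where fewer genes were counted, and 8 to 16 with 1 tumour left out, the lowest without tumour 1 and without tumour 3. The 23 neighbours became 15 of 87 with no floor, when 17.0% of all probe sets were at least 2-fold apart. They became 48 with 10 genes on each side, which doubled the genes counted to 163 from 83 where the chromosome allowed. With 1 tumour left out they numbered 5 to 14, the lowest without tumour 3. Leaving out a tumour narrows a range by construction, and 8.01% to 18.3% of all probe sets past the floor were then at least 2-fold apart. Of 80 ranges of member probe sets under another scaling or offset, 78 moved by less than the SD over the tumours, and 2 (1416123_at and 1416124_at of Ccnd2, both dim, with an offset of 16) moved by more. Low signal limits the Ccnd2 and Ccne1 values most.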

Other observations

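Other genes beside the members, named after their values were seen, differed widely without sharing the member's order. Avpr1a, a vasopressin receptor gene near Cdk4, read 64, 758 and 37 intensity units in tumours 1, 2 and 3, and a second probe set gave 51, 635 and 63, so tumour 2 alone was bright in both. Dtx3, also near Cdk4, had 208, 465 and 107. Klk6, a secreted protease gene near Ccne1, had 47, 379 and 104. Avpr1a and Klk6 passed the floor only through tumour 2. Esyt1, near Cdk2, had 562, 913 and 181. Of the 10 neighbours of Ccnb2, 8 were lowest in tumour 3, as Ccnb2 was, beside 44.1% of all genes past the floor, and that count was 7 with the intensities as deposited and 7 with array medians subtracted. With 10 genes on each side it was 11 of 20, close to the share of all genes.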
